A study of Mus musculus with 8 samples.

Results

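A set of 10 genes that carry the insulin signal from the muscle cell surface to glucose transport was examined in mouse gastrocnemius, the large muscle of the calf. Their rows were found by gene symbol, as Insr, Irs1, Irs2, Pik3r1, Akt2, Tbc1d1, Tbc1d4, Slc2a4, Slc2a1 and Prkag3, and all 10 were found among the 35949 gene rows of the count table. The choice of genes was made with earlier results of these data known. The T3TG group (n = 4 libraries) is muscle of aged mice that received blood-forming stem cells overexpressing SIRT3, a deacetylase of mitochondria. The WT group (n = 4 libraries) is muscle of aged mice that received control stem cells. Assigning the genotype labels T3TG and WT to these arms is a reading of the series' design text. Titles of T3TG libraries begin with T3 and those of WT libraries with Mx1, and the labels do not explain these prefixes or name the alleles behind them. Aging and transplantation are shared by both groups, and the muscle fibers in both belong to the recipient. The sources used here do not give the age or sex of the mice, the promoter driving SIRT3, the conditioning before transplantation, or how many animals the libraries come from.

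Insulin binds the insulin receptor (Insr), a tyrosine kinase that phosphorylates the docking proteins IRS1 and IRS2. These recruit phosphoinositide 3-kinase through its regulatory subunit (Pik3r1), and the lipid it makes activates the kinase AKT2. AKT2 inhibits the Rab GTPase-activating proteins TBC1D4 and TBC1D1, which releases vesicles holding the glucose transporter GLUT4 (Slc2a4) to the fiber surface. Contraction and energy stress reach TBC1D1 and TBC1D4 through AMP-activated protein kinase (AMPK), whose gamma-3 subunit (Prkag3) is made mainly in fast skeletal muscle. GLUT1 (Slc2a1) carries glucose in the basal state and is abundant in blood vessels and nerve sheaths.

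Library totals ran from 16.2 to 28.1 M counts. Levels below are CPM, counts scaled to library size. Even numbers make up almost the whole of T3TG replicates 2 and 3 (97.5% and 98.0% of values from 10 to 99, against 50.5% to 52.5% in the other 6 libraries), and 10 and 8 of the 10 genes had an even count there. Counts in these 2 libraries may therefore be doubled, and halved they would total 8.40 and 14.1 M. Values without both libraries are given where they matter, and halving their counts changed no call and no sign among the 10 genes. The first number in the sample titles, of unstated meaning, is 6 in 3 T3TG libraries and 1 WT library. Muscle identity was checked with 15 fiber markers, all measured, with Ckm (muscle creatine kinase) at 23520 CPM in T3TG and 24460 CPM in WT. Their summed level spanned 137000 to 172000 CPM in T3TG and 159000 to 171000 CPM in WT. Markers of fibro-adipogenic progenitors (10 of 10 tested) and macrophages (10 of 10) had higher values in T3TG. Their sums were 2100 to 2560 CPM in T3TG against 1560 to 1950 CPM in WT, and 234 to 414 CPM in T3TG against 177 to 223 CPM in WT. Of these 20, Col3a1 and Pi16 passed the edgeR test (adjusted p = 0.0409 for both), where 0.0711% of all genes tested did. Over all genes tested, 49.1% had higher values in T3TG. Of 9 adipocyte markers tested 9 had higher values, with sums of 443 to 670 CPM in T3TG and 432 to 529 CPM in WT. The 5 red cell markers tested had higher mean values, with sums of 67.6 to 523 CPM in T3TG and 70.6 to 133 CPM in WT, and all T3TG libraries but replicate 3 lay at or below 79.3 CPM. Sirt3 itself had 17.7 ± 2.50 CPM in T3TG muscle and 18.9 ± 2.49 CPM in WT muscle (SD, n = 4 each, edgeR adjusted p = 0.881), a level that does not test the donor cells.

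None of the 10 genes passed the test between T3TG and WT muscle. By the edgeR quasi-likelihood test with Benjamini-Hochberg adjustment over the 14064 genes tested, 0 of 10 passed 0.05, where 0.0711% of all genes did. DESeq2's Wald test called 0 of the 10 as well, where it called 0.697% of the 13062 genes it adjusted. Of the 10, 1 (Prkag3) had an unadjusted edgeR p under 0.05, beside 8.33% of all genes. Log2 fold changes (T3TG minus WT) were above 0 in 5 genes and below 0 in 5 (49.1% and 50.9% of all genes), with a median of -0.0087 beside -0.0043 over all genes tested. In all 10 genes the range of the T3TG libraries overlapped that of the WT libraries, and over the whole table the groups stood apart in 4.78% of genes. Every gene had counts far from the limit of detection, from 192 to 22163 per library, and all 10 passed the filter on low counts.

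**Figure D1:**
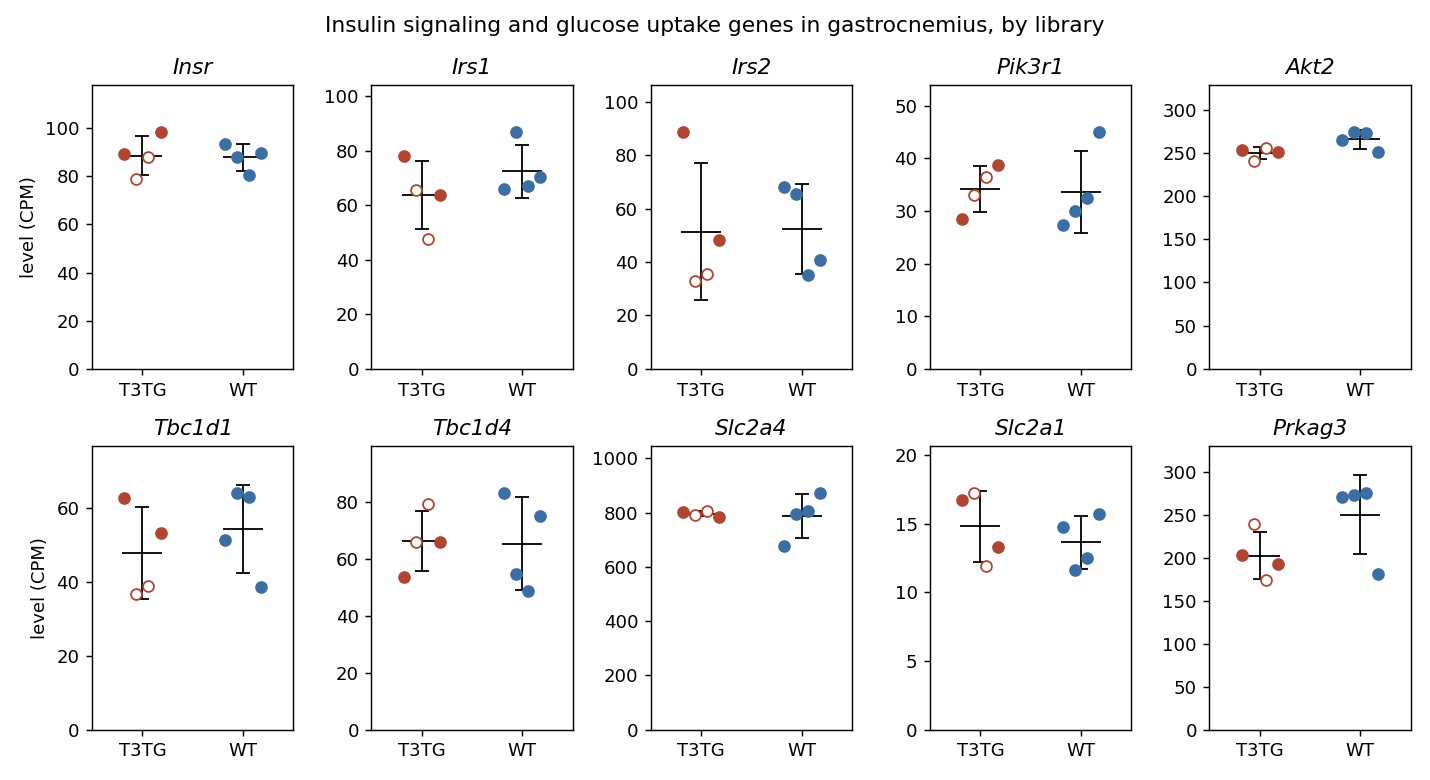
Level of each of the 10 genes (CPM, linear axis from 0) in the 4 T3TG and 4 WT libraries, with the group mean and SD as black bars. Open circles are T3TG replicates 2 and 3, whose counts are nearly all even. The groups overlap in every panel, and Slc2a4 varies least among T3TG libraries while Irs2 varies most in both groups.

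The receptor and its docking proteins stand at the head of the pathway. Insr, on chromosome 8 from 3150922 to 3279649 (GRCm38, the assembly behind mm10), had 89.2, 78.9, 88.2 and 98.3 CPM in T3TG replicates 1 to 4, against 93.6, 88.1, 80.4 and 89.7 CPM in WT replicates 1 to 4. T3TG held both the highest and the lowest library, and the means were 88.6 ± 7.92 CPM in T3TG and 88.0 ± 5.55 CPM in WT (SD, n = 4 each). This is a difference of 0.01 on the log2 scale (SE 0.09, edgeR adjusted p = 0.985), and the 95% interval allows a T3TG level of 0.888 to 1.14 times that of WT.

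Irs1 lies on chromosome 1 from 82233105 to 82291439. Its level was 78.0, 65.6, 47.7 and 63.7 CPM in T3TG libraries and 65.8, 86.8, 67.1 and 70.6 CPM in WT libraries. T3TG replicates 2, 3 and 4 lay below all WT libraries, replicate 3 lowest of the 8 and replicate 2 just under WT replicate 1. T3TG replicate 1 lay among the WT libraries. The log2 difference of Irs1 was -0.19 (SE 0.14, edgeR adjusted p = 0.753), and the interval spans 0.715 to 1.08 times WT. Leaving out T3TG replicate 1 gave -0.30 (unadjusted edgeR p of 0.0317, adjusted p of 0.440), leaving out T3TG replicate 3 gave -0.07 and leaving out WT replicate 2 gave -0.09. In the 6 libraries without T3TG replicates 2 and 3 it was -0.03.

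Irs2 (chromosome 8, 10984681 to 11008929), whose messenger RNA is known from mouse liver to be high in fasting and low after insulin, was the least steady of the 10. It had 88.5, 33.0, 35.6 and 48.2 CPM in T3TG replicates 1 to 4 and 67.9, 65.5, 35.2 and 40.8 CPM in WT replicates 1 to 4. High and low libraries occurred in both groups: T3TG replicate 1 and WT replicates 1 and 2 had 65.5 to 88.5 CPM, and the other 5 had 33.0 to 48.2 CPM. Its within-group SD of 0.57 on the log2 scale was larger than that of 91.1% of genes tested. T3TG minus WT came to -0.03 on the log2 scale (SE 0.40, edgeR adjusted p = 0.993), and its interval was the widest of the 10, from 0.502 to 1.91 times WT. In the 6 libraries the sign turned, to 0.39 (SE 0.41), and without T3TG replicate 1 it was -0.43, neither past the threshold. Feeding state at collection is not given in the sources used here. Irs1 counts were 0.881, 1.99, 1.34 and 1.32 times the Irs2 counts in T3TG replicates 1 to 4, and 0.970, 1.32, 1.90 and 1.73 times in WT replicates 1 to 4. The ranges overlapped, and the difference of log2 means was -0.11 (two-sided exact permutation p = 0.771, adjusted over 4 ratios 0.771).

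Pik3r1 and Akt2 carry the signal inside the fiber. Pik3r1 (chromosome 13, 101680761 to 101768217) had 28.5, 33.1, 36.5 and 38.7 CPM in T3TG replicates 1 to 4, against 27.4, 29.9, 32.5 and 45.0 CPM in WT replicates 1 to 4. The 4 libraries with first title number 6 were the 4 highest, from 33.1 to 45.0 CPM, and the others had 27.4 to 32.5 CPM. Pik3r1 differed by 0.02 on the log2 scale (SE 0.15, edgeR adjusted p = 0.986), with an interval of 0.813 to 1.26 times WT. Within number 6 the 3 T3TG libraries lay 0.22 to 0.44 below WT replicate 4 on the log2 scale, and within number 2 T3TG replicate 1 differed from WT replicate 2 by -0.07. A model term for number 6 turned the sign, to -0.20 (SE 0.11, edgeR adjusted p = 0.942), and the replicate block on the first title number gave -0.22 (SE 0.12, edgeR adjusted p = 0.997). The block compares libraries only within a number, so WT replicates 1 and 3, each alone in their number, do not enter its difference. With group as the only term and without WT replicate 4, the log2 difference of Pik3r1 was 0.19. Akt2, the AKT form that insulin-stimulated glucose uptake depends on in mouse muscle, lies on chromosome 7 from 27591552 to 27640826. The level of Akt2 was 252.8, 240.3, 255.6 and 251.0 CPM in T3TG libraries, against 265.3, 273.8, 273.3 and 250.7 CPM in WT libraries. WT replicates 1 to 3 lay above all T3TG libraries, and WT replicate 4 lay among them. Akt2 was the steadiest of the 10, with a within-group SD of 0.05 on the log2 scale, and 0.675% of genes tested had a smaller one. A log2 difference of -0.09 (SE 0.08, edgeR adjusted p = 0.798) leaves room for 0.841 to 1.05 times the WT level. Akt2 has a processed pseudogene in the annotation (Akt2-ps), so some of its reads may be ambiguous.

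**Figure D2:**
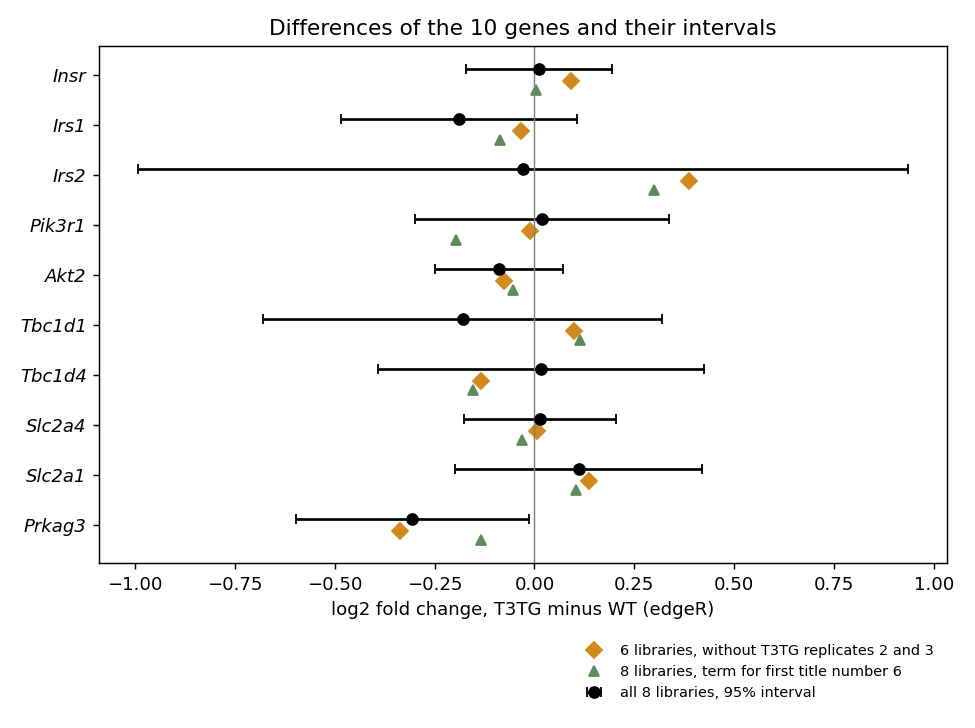
Log2 fold change (T3TG minus WT, edgeR) of each gene with its 95% interval over all 8 libraries (black), over 6 libraries without T3TG replicates 2 and 3 (orange diamonds), and with a model term for first title number 6 (green triangles). The interval of Prkag3 alone stays below 0, from -0.60 to -0.01, and that of Irs2 is the widest, from -0.99 to 0.94.

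Tbc1d1 and Tbc1d4 encode the paired brakes on GLUT4 vesicles. In mouse muscle TBC1D1 protein is known to prevail in fast glycolytic fibers and TBC1D4 in more oxidative ones. Tbc1d1 (chromosome 5, 64156305 to 64351486) had 63.0, 36.7, 38.9 and 53.3 CPM in T3TG replicates 1 to 4, against 51.4, 64.2, 63.1 and 38.7 CPM in WT replicates 1 to 4. Tbc1d4 (chromosome 14, 101442360 to 101609281) had 53.6, 66.1, 79.3 and 66.1 CPM in the same T3TG libraries and 83.3, 54.7, 48.9 and 75.2 CPM in the WT libraries. The 3 libraries with most Tbc1d1 (T3TG replicate 1, WT replicates 2 and 3) were the 3 with least Tbc1d4. Neither gene separated the groups: log2 fold changes were -0.18 (SE 0.22) and 0.02 (SE 0.18), with edgeR adjusted p of 0.866 and 0.990. Their intervals were 0.625 to 1.25 and 0.763 to 1.34 times WT. Both signs turned in the 6 libraries, to 0.10 and -0.13. With 1 library left out Tbc1d1 ran from -0.34 (without T3TG replicate 1) to -0.08 (without T3TG replicate 2).

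Within a library, Tbc1d1 counts were 1.18, 0.555, 0.491 and 0.806 times the Tbc1d4 counts in T3TG replicates 1 to 4, and 0.618, 1.17, 1.29 and 0.515 times in WT replicates 1 to 4. The ratio thus exceeded 1 in 1 T3TG and 2 WT libraries. Libraries with first title number 6 had ratios from 0.491 to 0.806, and those with number 2 had 1.18 (T3TG replicate 1) and 1.17 (WT replicate 2). WT replicate 1, the library numbered 1, had 0.618, inside the range of number 6, and WT replicate 3, numbered 3, had 1.29. On the log2 scale the ratio averaged -0.49 ± 0.57 in T3TG and -0.26 ± 0.66 in WT (SD, n = 4 each), a difference of -0.23 with a two-sided exact permutation p of 0.600. After adjustment over the 4 ratios compared, p was 0.771. With 1 library left out the difference ran from -0.47 (without T3TG replicate 1) to -0.015 (without WT replicate 3). Because a ratio within a library does not use library scaling, this comparison does not depend on it. The opposed levels of Tbc1d1 and Tbc1d4 over the 8 libraries had Pearson's r = -0.726 (two-sided exact permutation p = 0.0512) and Spearman's rho = -0.690 (exact permutation p = 0.0694). This pair was singled out after its values were seen. Without the 2 libraries farthest from the median of Tbc1d1, r was -0.838, and in the 6 libraries with unremarkable counts it was -0.786. Adjusted over all 45 pairs of the 10 genes, p was 0.491 for r and 0.684 for rho, and 0 of 45 pairs passed 0.05. Before adjustment, Akt2 with Tbc1d1 had lower exact permutation p (r = 0.708, p = 0.0497, and rho = 0.810, p = 0.0218). Akt2 with Slc2a1 had a lower one for rho (-0.786, exact permutation p = 0.0279).

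**Figure D3:**
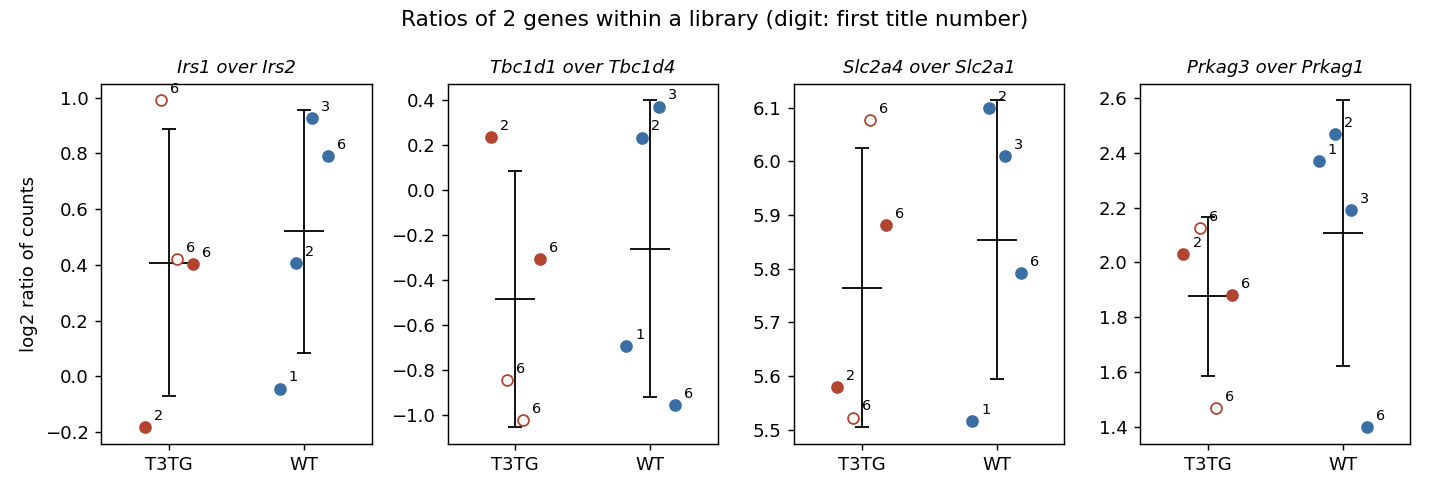
Log2 ratio of the counts of 2 genes in the same library, for T3TG and WT, with mean and SD as black bars. The digit beside each point is the first number in the sample title, and open circles are T3TG replicates 2 and 3. In all 4 panels the groups overlap. The Tbc1d1 over Tbc1d4 ratio is below 1 (log2 below 0) in every library numbered 6 and in the library numbered 1.

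The transporters lie at the end of the pathway. Slc2a4, which encodes GLUT4, lies on chromosome 11 from 69942286 to 69948216. It had 801.1, 793.0, 804.9 and 784.2 CPM in T3TG libraries and 677.6, 796.4, 807.5 and 872.3 CPM in WT libraries. All T3TG libraries lay inside the WT range, in which WT replicate 1 was lowest and WT replicate 4 highest. Means were 795.8 ± 9.21 CPM in T3TG and 788.5 ± 81.1 CPM in WT (SD, n = 4 each). On the log2 scale this is 0.01 (SE 0.09, edgeR adjusted p = 0.983), and the interval of 0.885 to 1.15 times WT is among the narrowest of the 10. A test of the difference in spread was not run.

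Slc2a1 (chromosome 4, 119108745 to 119137330), the gene of GLUT1, had 16.7, 17.2, 11.9 and 13.3 CPM in T3TG libraries and 14.8, 11.6, 12.5 and 15.7 CPM in WT libraries. T3TG replicates 1 and 2 were the highest of the 8, and T3TG replicate 3 was among the lowest. The group difference was 0.11 on the log2 scale (SE 0.15, edgeR adjusted p = 0.877), with an interval of 0.871 to 1.34 times WT. With 1 library left out it ran from 0.025 (without T3TG replicate 2) to 0.20 (without T3TG replicate 3). Beside it, 11 of 12 endothelial markers had higher values in T3TG, where 49.1% of all genes tested did. The summed level of these markers was 582 to 688 CPM in T3TG and 433 to 550 CPM in WT. The part of endothelial cells in the Slc2a1 value was not tested. In whole muscle, a change in the number of cells of a type and a change in RNA per cell cannot be told apart. Slc2a4 counts were 47.8, 46.0, 67.5 and 58.9 times the Slc2a1 counts in T3TG libraries and 45.8, 68.6, 64.4 and 55.4 times in WT libraries. The ratio overlapped fully between groups (difference of log2 means -0.09, two-sided exact permutation p = 0.686, adjusted p = 0.771).

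Prkag3 was the gene closest to a difference. It lies on chromosome 1 from 74738922 to 74749471, and its protein is the regulatory subunit of the AMPK form found mainly in fast fibers. It had 203.6, 238.8, 174.3 and 192.5 CPM in T3TG replicates 1 to 4, against 270.9, 272.7, 275.4 and 181.0 CPM in WT replicates 1 to 4. WT replicates 1 to 3 lay close together and above all T3TG libraries, while WT replicate 4 lay below 3 of the 4 T3TG libraries. Means were 202.3 ± 27.2 CPM in T3TG and 250.0 ± 46.0 CPM in WT (SD, n = 4 each). Prkag3 had a log2 fold change of -0.31 (SE 0.14), with an unadjusted edgeR p of 0.0416 and an adjusted p of 0.579. The interval runs from 0.661 to 0.991 times WT before any adjustment for the number of genes.

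Of the 8 libraries, WT replicate 4 moved the Prkag3 value most when left out. The fit of the other 7 gave -0.44 on the log2 scale (SE 0.10), an unadjusted edgeR p of 0.000615 and an adjusted p of 0.147. Without T3TG replicate 3 it was -0.24 (unadjusted edgeR p of 0.113). In the 6 libraries without T3TG replicates 2 and 3 it was -0.34 (SE 0.16), with an unadjusted edgeR p of 0.0590. Among libraries with first title number 2, T3TG replicate 1 differed from WT replicate 2 by -0.42 on the log2 scale. Among those numbered 6, the 3 T3TG libraries averaged 0.15 above WT replicate 4. A model term for number 6 gave -0.13 (SE 0.14), and group and title number overlap in this design. The replicate block on the first title number gave -0.08 (SE 0.16, edgeR adjusted p = 0.997). WT replicates 1 and 3 are each alone in their number and do not enter the block's difference, which rests on WT replicates 2 and 4. Fiber markers, which stand beside Prkag3, had lower values in T3TG in 13 of 15 (median log2 fold change -0.14), beside 50.9% of all genes tested. Of these 15 markers, 0 passed the edgeR test. Their part in the Prkag3 value was not tested.

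Other AMPK subunits were measured in the same libraries. Prkaa2, the catalytic alpha-2 subunit, had 254.3 ± 12.2 CPM in T3TG and 256.8 ± 30.1 CPM in WT (log2 fold change -0.01, SE 0.09). Prkab2, the beta-2 scaffold, had 376.9 ± 31.7 CPM in T3TG and 412.8 ± 79.7 CPM in WT (-0.13, SE 0.12). Prkag1, the widespread gamma-1 subunit, had 54.9 ± 5.71 CPM in T3TG and 57.6 ± 8.65 CPM in WT (-0.07, SE 0.11). None of these passed, with edgeR adjusted p from 0.823 to 0.982. WT replicate 4 had the lowest level of the 8 for Prkab2 (302.7 CPM) and Prkaa2 (220.4 CPM) and the highest for Prkag1 (68.6 CPM). WT replicate 3, the nearest WT library in each, had 419.3, 245.2 and 60.2 CPM. Prkag3 counts were 4.08, 4.37, 2.77 and 3.68 times those of Prkag1 in T3TG replicates 1 to 4 and 5.17, 5.53, 4.57 and 2.64 times in WT replicates 1 to 4. The difference of log2 means was -0.23, with a two-sided exact permutation p of 0.457 and an adjusted p of 0.771. Without WT replicate 4 it was -0.467 (exact permutation p = 0.0571, adjusted p = 0.229), and without T3TG replicate 3 it was -0.095.

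Levels can be set against each other only per length, here CPM per kilobase of annotated exons. Slc2a4 led with 229 ± 2.65 CPM per kilobase in T3TG and 227 ± 23.3 in WT. Prkag3 followed with 54.9 ± 7.37 in T3TG and 67.9 ± 12.5 in WT, and Akt2 with 35.05 ± 0.938 in T3TG and 37.3 ± 1.51 in WT. These 3 did not overlap each other or any other gene in the 8 libraries. Tbc1d4, Irs2, Irs1, Tbc1d1 and Insr came next, with group means per kilobase of 6.40 to 8.63 and ranges over the 8 libraries that overlapped. Slc2a1 (4.22 ± 0.741 in T3TG and 3.89 ± 0.550 in WT) and Pik3r1 (3.39 ± 0.441 in T3TG and 3.34 ± 0.775 in WT) closed the list and overlapped each other. Exon lengths join all annotated transcripts of a gene, so a gene using a short form in muscle is understated.

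The wider pathway gave the same count as the 10 genes. Of 95 further gene symbols on 5 lists, 94 were found in the count table and 90 were tested. Of the 90, 0 passed in either direction by the edgeR test, and 49 had log2 fold changes above 0 and 41 below. The median was 0.01, and an unadjusted p under 0.05 was reached by 5 genes with higher and 2 with lower values, beside 5.88% and 2.45% of all genes. DESeq2 gave 87 of the 90 an adjusted p and called 0 of them, where it called 0.697% of all genes it adjusted. The groups did not overlap in 1 of the 90, beside 4.78% of all genes tested. This was Camkk2, an upstream kinase of AMPK, with 5.30 ± 0.380 CPM in T3TG and 4.47 ± 0.447 CPM in WT (edgeR adjusted p = 0.742).

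Among 18 tested receptor partners, adaptors and brakes (11 above 0, 7 below, median log2 fold change 0.01), the most abundant was Trim72, an E3 ligase that targets IRS1 in mouse muscle, at 193 ± 27.0 CPM in T3TG and 199.5 ± 30.6 CPM in WT. Grb10, an adaptor that restrains the insulin receptor, had 49.6, 51.4, 55.4 and 46.2 CPM in T3TG libraries and 47.2, 39.9, 36.0 and 46.7 CPM in WT libraries. T3TG replicate 4 lay below 2 of the WT libraries, and the log2 fold change was 0.26 (SE 0.10, edgeR adjusted p = 0.483). Sh2b1, an adaptor that enhances signaling, had -0.18 (SE 0.08, edgeR adjusted p = 0.599). Insrr was listed but too low to test.

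The PI3K-Akt arm gave 0 of 24, with 11 above 0 and 13 below and a median log2 fold change of -0.02. Inppl1, the lipid phosphatase SHIP2 and the most abundant member, had -0.08 (SE 0.11). Phlpp1, a phosphatase of AKT, had 0.24 (SE 0.13, edgeR adjusted p = 0.644), and Tsc1, which restrains mTOR complex 1, -0.19 (SE 0.09, edgeR adjusted p = 0.590).

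GLUT4 vesicle traffic gave 0 of 22 tested (10 above 0, 12 below, median -0.03). Rab10, a vesicle GTPase and the most abundant, had 281.5 ± 29.7 CPM in T3TG and 287.7 ± 22.7 CPM in WT. Myo1c, a motor that helps GLUT4 vesicles reach the membrane, had the lowest p among the 90 genes. Its level was 51.2, 62.9, 73.7 and 67.3 CPM in T3TG libraries and 47.5, 45.9, 51.1 and 58.4 CPM in WT libraries, so the groups touched through T3TG replicate 1 and WT replicate 4. The difference on the log2 scale was 0.33 (SE 0.11), with an unadjusted edgeR p of 0.00923 and an adjusted p of 0.390. Stx4a, the membrane SNARE for GLUT4 vesicles, had -0.14 (SE 0.08, edgeR adjusted p = 0.689).

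Other transporters and hexokinases gave 0 of 13 (10 above 0, 3 below), with the highest list median, 0.11. Txnip, which limits glucose uptake, was the most abundant at 906.3 ± 182 CPM in T3TG and 859.8 ± 16.6 CPM in WT. Hk1, a hexokinase prominent outside fibers, had 10.6, 16.1, 13.6 and 12.9 CPM in T3TG and 9.53, 9.65, 10.04 and 11.1 CPM in WT. T3TG replicate 1 lay below WT replicate 4, and the log2 fold change was 0.40 (SE 0.14, edgeR adjusted p = 0.428). Slc2a3, the transporter GLUT3, had -0.44 (SE 0.21, edgeR adjusted p = 0.626). AMPK subunits and upstream kinases gave 0 of 13 (7 above 0, 6 below, median 0.00). Strada and Stradb, pseudokinases that activate the AMPK kinase LKB1, had the lowest p in each direction, at 0.17 (SE 0.11) and -0.12 (SE 0.09), with edgeR adjusted p of 0.708 and 0.769.

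**Figure D4:**
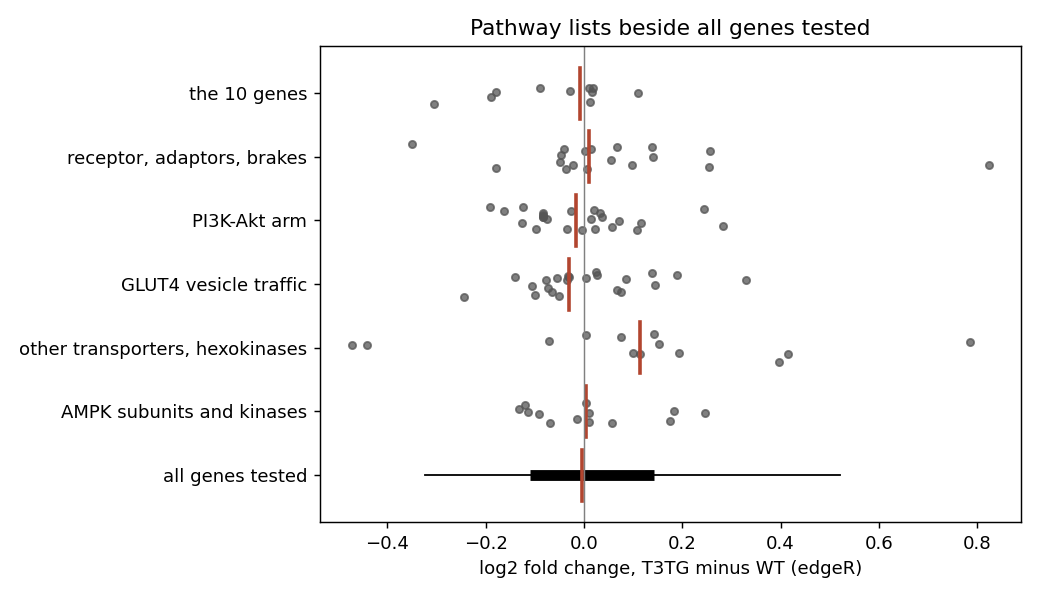
Log2 fold change (T3TG minus WT, edgeR) of every tested gene of the 10 and of the 5 pathway lists, with list medians as red lines; points are spread vertically for legibility. The bottom row shows all 14064 genes tested, with the 25th to 75th percentile (-0.11 to 0.14) as a thick line and the 5th to 95th (-0.32 to 0.52) as a thin one. All 10 genes lie within the 5th to 95th percentile range.

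By profile over the 8 libraries, the 3 genes most like Slc2a4 among 7780 with at least 10 CPM were Fam3c, Mtch1 and Arpp19. Likeness was the root mean square distance of log2 levels standardised to each gene's own SD, and it was 0.305, 0.385 and 0.385 for these 3 against a median of 1.32. All 3 share with Slc2a4 a lowest WT replicate 1 and a highest WT replicate 4, and they were chosen by this likeness. T3TG libraries lay close together in Fam3c, less so in Mtch1, where they ran from 84.56 CPM (replicate 2) to 94.43 CPM (replicate 3). Fam3c, for example, had 10.03, 10.49, 10.75 and 10.32 CPM in T3TG libraries and 8.12, 9.78, 10.54 and 12.97 CPM in WT libraries.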

How the data were processed

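Gastrocnemius RNA was measured in 8 polyA-enriched libraries sequenced as read pairs, per the labels' protocols. The authors deposited unnormalized read counts, 1 whole number per gene symbol and library. HISAT2 2.2.1, HTSeq 0.9.1, DESeq2 1.34.0 and mm10 are listed in the submitters' processing notes, and the sources used here give neither the annotation nor the strand setting. Reads of Irs1, Irs2 and Slc2a1 therefore cannot be told apart from those of antisense genes overlapping their exons (Gm9747, 9530052E02Rik, Gm12868). Of these antisense genes only 9530052E02Rik has a row of its own, with 31 to 119 counts per library beside 558 to 1889 for Irs2. Of 35976 rows, 27 have a date where the gene name should be; they hold 0.0885% to 0.0961% of the counts and were left out. All 28 pairs of libraries differed by more than sampling noise.

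After filterByExpr and TMM scaling, edgeR 4.0.16 (R 4.3.3) ran its robust quasi-likelihood test with group as the only term, and p-values were adjusted over 14064 genes. The SE is the absolute log2 fold change divided by the square root of F. P-values for group differences set the difference against the spread between these libraries, and how many animals the libraries come from is not given. Ratios of 2 genes used counts plus 0.5 and two-sided exact permutation tests, whose smallest p with 4 against 4 is 0.0286. Exon lengths are from GENCODE M21 and coordinates from RefSeq GRCm38.p6, 1-based.

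The 10 genes, the lists and the alternatives were chosen with earlier results of these data known. Named pathway genes were, per list, the most abundant and the lowest p in each direction. Scripts were tested on simulated counts. Alternatives were other scaling, filters and thresholds, DESeq2 1.42.0, voom of limma 3.58.1, terms for title numbers and even-count libraries, and leaving out libraries.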

Additional observations from a re-analysis of the deposited data

Results flagged for a closer look

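Of 58 groups of 4 libraries checked for a library far from the rest, 1 stood out, and chance gives such a result in about 1 of 20 groups. Prkag3 had 181 CPM in WT replicate 4, with a gap to the nearest other WT library of 0.952 of the whole WT range.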

How the results depend on the processing

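In 20 alternative fits, 0 of the 10 genes passed in any, and the lowest adjusted p was 0.147 (Prkag3 without WT replicate 4, edgeR). Of 200 log2 fold changes 164 kept their sign and 36 did not, and Irs1, Akt2, Slc2a1 and Prkag3 kept it in all 20, though Prkag3 was -0.08 with the replicate block. Without scaling factors Irs2 was 0.0337, and with voom Tbc1d4 was -0.0043. The replicate block on the first title number gave Insr -0.0054, Irs2 0.13, Pik3r1 -0.22, Tbc1d1 0.0764, Tbc1d4 -0.067 and Slc2a4 -0.0784. In this block WT replicates 1 and 3, each alone in their number, do not enter the group difference. Same-numbered libraries of the 2 groups correlated between -0.054 and 0.155 in their deviations over genes, and differently numbered ones between -0.189 and 0.085. The labels do not say that the number pairs libraries. A term for number 6 gave Irs2 0.30, Pik3r1 -0.20, Tbc1d1 0.11, Tbc1d4 -0.15 and Slc2a4 -0.0303. Without both even-count libraries Irs2 was 0.39, Pik3r1 -0.01, Tbc1d1 0.10 and Tbc1d4 -0.13, and a term for them gave 0.39, -0.0099, 0.10 and -0.13. With 1 library left out, ranges were -0.0423 to 0.0575 for Insr, -0.30 to -0.07 for Irs1, -0.43 to 0.13 for Irs2, -0.0775 to 0.19 for Pik3r1, -0.34 to -0.0774 for Tbc1d1, -0.10 to 0.15 for Tbc1d4, 0.025 to 0.20 for Slc2a1, -0.44 to -0.24 for Prkag3 and -0.0603 to 0.0619 for Slc2a4. The Tbc1d1 over Tbc1d4 difference was 0.224 without both even-count libraries, the Irs1 over Irs2 difference ran from -0.307 to 0.085 with 1 library left out, and the median of the vesicle traffic list from -0.059 to 0.021. Causes were not tested. Calls over the whole table numbered 10, and 52 without scaling factors, 107 without a filter, 91 with DESeq2, 2 with voom, 4 with the block, 2 with the term for number 6, 0 with either treatment of the even-count libraries by removal or term, 30 at a threshold of 0.1 and 0 to 37 with 1 library left out.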
